A study of Mus musculus with 9 samples.

Results

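Genes of luteal progesterone synthesis were followed through 9 RNA-seq libraries of mouse ovarian granulosa cells. The set holds 10 genes of the 56748 identifiers in the expression table, and it was defined by name: Scarb1, Star, Cyp11a1, Fdx1, Fdxr, Hsd3b1, Akr1c18, Lhcgr, Ptgfr and Parm1. Each symbol matched exactly 1 identifier, and all 10 genes passed the filter on low values that left 14431 genes to test.

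The study used wild type female C57BL/6 mice as a model of premature ovarian failure, with 3 libraries per group. CTX_HCQ mice (CTX+HCQ in the labels) were injected with cyclophosphamide (CTX), an alkylating drug, at 120 mg/kg, and were given hydroxychloroquine (HCQ) by mouth at 40 mg/kg per day, starting 7 days ahead of the injection and ending 4 weeks past it. CTX mice had the same injection without hydroxychloroquine. Control mice had neither drug. They are called untreated in the labels and vehicle controls in the design text, and nothing here decides between these. Age, cycle stage and any hormone stimulation are not given in the sources used here, and neither is whether a library held 1 mouse or a pool. Each p-value therefore reflects how far these particular libraries differ, and some of that spread may be technical.

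Progesterone is made from cholesterol. SCARB1 takes up cholesterol esters from lipoproteins, STAR moves cholesterol to the inner mitochondrial membrane, and CYP11A1 cleaves its side chain there with electrons passed on by FDXR and FDX1. The enzyme HSD3B1 turns the product, pregnenolone, into progesterone, and AKR1C18 inactivates progesterone at the end of luteal life in rodents. Luteinising hormone, acting through LHCGR, switches granulosa cells towards this programme at ovulation, and prostaglandin F2 alpha, acting through PTGFR, ends it in the corpus luteum.

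Levels are FPKM, which scale reads to gene length and library size, so that genes can also be set against each other. The reads of genes recovered from the FPKM summed to 13878805 in CTX_HCQ 3, the lowest, and to 17738502 in Control 2, the highest. The library size implied by the FPKM ran from 15344525 to 17943266 in the same libraries. Differences are on the log2(FPKM + 1) scale with a standard error (SE), 3 libraries per group, from limma's moderated test over all 14431 genes with Benjamini-Hochberg adjustment. The FPKM of a library added up to 246449 in CTX_HCQ 3 and to 378232 in CTX 3, the lowest and highest of the 9. Genes of the mitochondrial genome held 28.9% of the FPKM in CTX 3 and 11.7% to 17.5% elsewhere. The granulosa markers Inha (2865 to 4951 FPKM), Amh (172 to 540 FPKM), Foxl2 (67.8 to 104 FPKM) and Fshr (18.2 to 45.7 FPKM) were present in every library, as all 15 genes of the granulosa list were.

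The pathway was strongly expressed in every group. Hsd3b1 and Cyp11a1 were among the most abundant transcripts of all libraries, while no member passed the test in any of the 3 comparisons. By mean FPKM over the 9 libraries, Hsd3b1 ranked 6 among the tested genes, with ranks of 4 to 9 in single libraries, and Cyp11a1 ranked 13, with ranks of 11 to 25. The order continued with Fdx1 at rank 114, Fdxr at 179, Scarb1 at 182, Star at 242 and Lhcgr at 258. Ptgfr at rank 1153, Parm1 at 1916 and Akr1c18 at 4320 closed it. The ranges of Hsd3b1 (1851 to 5655 FPKM), Cyp11a1 (479 to 1670 FPKM) and Fdx1 (70.8 to 378 FPKM) did not touch each other. From Fdx1 to Lhcgr, neighbouring genes overlapped widely and their order was not beyond the spread between libraries. Together the 10 genes took 1.10% to 2.49% of a library's FPKM, the lowest share in CTX_HCQ 3 and the highest in CTX 1.

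**Figure D1:**
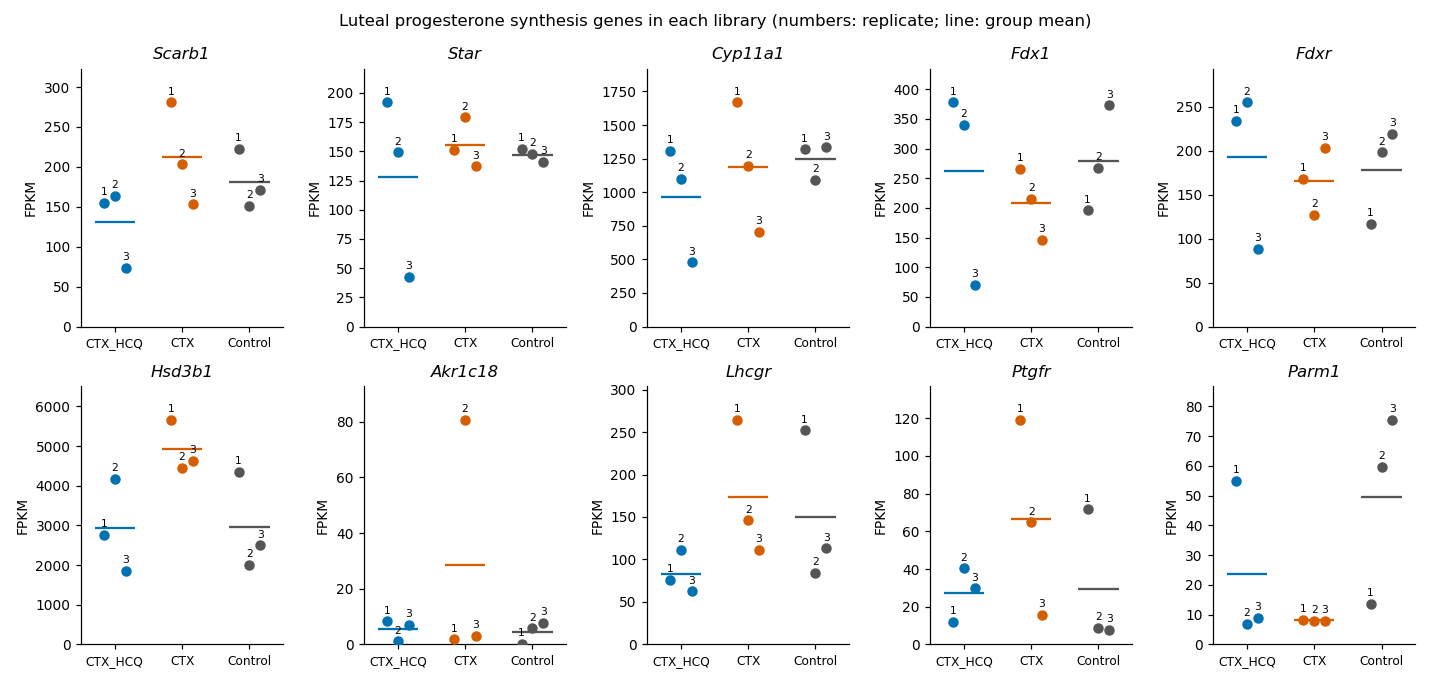
FPKM of the 10 genes in each library, 1 panel per gene with its own linear axis from 0. Points are libraries with their replicate number and lines are group means (3 libraries per group). The CTX points of Hsd3b1 lie above all others, and Parm1 stands at 7.99 to 8.31 FPKM in CTX.

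Cholesterol supply came from Scarb1 and Star. Scarb1 (ENSMUSG00000037936), the receptor for high-density lipoprotein, stood at 155, 164 and 73.9 FPKM in CTX_HCQ libraries 1 to 3, at 281, 203 and 153 FPKM in CTX, and at 223, 151 and 171 FPKM in Control. CTX 1 was the highest library and CTX_HCQ 3 the lowest, and the groups overlapped. The log2 difference was -0.73 (SE 0.36) for CTX_HCQ against CTX, with an unadjusted p of 0.0683 and an adjusted p of 0.906 in limma. It was 0.20 (SE 0.36) for CTX against Control, or -0.02 without CTX 1, and -0.53 (SE 0.36) for CTX_HCQ against Control.

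Star (ENSMUSG00000031574), the carrier that controls how much cholesterol enters mitochondria, stood at 192, 149 and 42.7 FPKM in CTX_HCQ. It stood at 151, 179 and 137 FPKM in CTX and at 152, 148 and 141 FPKM in Control. All libraries but CTX_HCQ 3 lay between 137 and 192 FPKM, the narrowest band of the set apart from that library. The log2 difference between CTX and Control was 0.08 (SE 0.46), with a 95% confidence interval of -0.96 to 1.11, and -0.03 without CTX 2. Against CTX, CTX_HCQ was at -0.53 (SE 0.46) with all libraries and at 0.13 without CTX_HCQ 3. Against Control it was at -0.45 (SE 0.46) with all libraries and at 0.20 without CTX_HCQ 3.

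Side chain cleavage rests on Cyp11a1 and its electron donors Fdx1 and Fdxr. Cyp11a1 (ENSMUSG00000032323) stood at 1306, 1102 and 479 FPKM in CTX_HCQ, at 1670, 1197 and 707 FPKM in CTX, and at 1319, 1090 and 1333 FPKM in Control. Control was the tightest group, at 1248 ± 137 FPKM (SD, n = 3), and CTX_HCQ 3 and CTX 3 were the low libraries. The log2 difference of CTX from Control was -0.15 (SE 0.46), and 0.19 without CTX 3. For CTX_HCQ it was -0.34 (SE 0.46) against CTX and -0.49 (SE 0.46) against Control. Without CTX_HCQ 3 these were 0.10 and -0.05.

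The start region of Cyp11a1 is shown because it holds the AGGTCA element of nuclear receptors (capitals) 28 bases upstream of the annotated start. It is the downstream one of the 2 windows listed for the gene, from RefSeq on GRCm38.p6 at chr9:58014702-58015001, plus strand, 250 bases before to 50 after the start.
Cyp11a1: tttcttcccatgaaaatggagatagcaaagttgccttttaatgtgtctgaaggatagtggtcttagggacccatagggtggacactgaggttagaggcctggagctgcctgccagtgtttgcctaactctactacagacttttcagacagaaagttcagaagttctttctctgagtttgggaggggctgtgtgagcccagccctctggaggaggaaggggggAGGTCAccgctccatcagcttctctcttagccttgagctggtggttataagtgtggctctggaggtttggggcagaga

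Fdx1 (ENSMUSG00000032051), adrenodoxin, stood at 378, 340 and 70.8 FPKM in CTX_HCQ, at 266, 215 and 146 FPKM in CTX, and at 196, 267 and 373 FPKM in Control. The highest and the lowest of the 9 libraries were both in CTX_HCQ. The log2 difference of CTX from Control was -0.41 (SE 0.58). CTX_HCQ against CTX was at 0.04 (SE 0.58). Its sign turned with the libraries kept, at 0.82 without CTX_HCQ 3, but -0.38 without CTX_HCQ 1, -0.30 without CTX_HCQ 2 and -0.19 without CTX 3. CTX_HCQ against Control was at -0.36 (SE 0.58), and at 0.41 without CTX_HCQ 3.

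Fdxr (ENSMUSG00000018861), adrenodoxin reductase, stood at 234, 255 and 88.6 FPKM in CTX_HCQ, at 168, 127 and 203 FPKM in CTX, and at 117, 198 and 219 FPKM in Control. The groups overlapped throughout. The log2 differences were -0.08 (SE 0.42) for CTX against Control, 0.10 (SE 0.42) for CTX_HCQ against CTX, and 0.02 (SE 0.42) for CTX_HCQ against Control. The intervals of these differences reached from -1.02 to 0.86, from -0.84 to 1.04 and from -0.92 to 0.96, so changes of up to about that size were not detectable here. Without CTX_HCQ 3 the CTX_HCQ values were 0.58 against CTX and 0.50 against Control. Without CTX_HCQ 1 they were -0.12 and -0.19, and without CTX_HCQ 2 they were -0.18 and -0.25. The sign also turned without Control 2 (0.03), Control 3 (0.10) or CTX 2 (0.10) for CTX against Control, without CTX 2 (-0.08) for CTX_HCQ against CTX, and without Control 1 (-0.26) for CTX_HCQ against Control.

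CTX_HCQ 3 was the lowest of the 9 libraries for 7 members: Scarb1, Star, Cyp11a1, Fdx1, Fdxr, Hsd3b1 and Lhcgr. How many of all tested genes were lowest in CTX_HCQ 3 was not counted, so this is not read as particular to the members. CTX_HCQ 3 had the fewest recovered reads and the most genes above 0, 26150 against 22091 to 24838 elsewhere. When each library was rescaled to its FPKM outside the mitochondrial genome, which multiplied CTX_HCQ 3 by 1.25, it was the lowest for 5 of the 10. Star then stood at 53.5 FPKM in CTX_HCQ 3 and at 132 to 192 FPKM in the other 8 libraries. CTX 1 was the highest library for 5 members. In bulk libraries, fewer cells of a type and less RNA per cell cannot be told apart.

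Hsd3b1 (ENSMUSG00000027871), the enzyme that forms progesterone, was the most abundant member. It stood at 2763, 4170 and 1851 FPKM in CTX_HCQ, at 5655, 4458 and 4637 FPKM in CTX, and at 4354, 2010 and 2500 FPKM in Control. All CTX libraries lay above all others by FPKM, with a narrow gap to Control 1 and to CTX_HCQ 2. As a share of a library's FPKM, CTX 3 (1.23%) lay below Control 1 (1.43%) and CTX_HCQ 2 (1.27%). Rescaled to the FPKM outside the mitochondrial genome, CTX 3 stood at 4484 FPKM, Control 1 at 4372 FPKM and CTX_HCQ 2 at 3747 FPKM. CTX averaged 4917 ± 646 FPKM and Control 2954 ± 1237 FPKM (SD, n = 3 each), a log2 difference of 0.81 (SE 0.47, 95% confidence interval -0.24 to 1.85), with an unadjusted p of 0.117 and an adjusted p of 0.653 in limma. CTX_HCQ averaged 2928 ± 1169 FPKM, at -0.82 against CTX (SE 0.47, 95% confidence interval -1.86 to 0.23, adjusted p 0.906 in limma). Against Control it was at -0.01 (SE 0.47), at 0.28 without CTX_HCQ 3 and at 0.31 without Control 1.

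Neither difference passed the test. Leaving out 1 library at a time kept Hsd3b1 higher in CTX than in Control, at 0.57 to 1.13, and lower in CTX_HCQ than in CTX, at -1.11 to -0.53. The size depended on the processing. Quantile normalization gave 0.36 and -0.20, and library weights gave 1.10 and -0.84. The comparisons share the CTX libraries. Hsd3b6, a closely related gene, stood at 0.217 to 0.870 FPKM from 6 to 26 reads per library, below the filter. The related genes Hsd3b2 and Hsd3b3 had 0 to 2 and 0 to 4 reads per library. The sources used here do not say how reads that match more than 1 of these genes were counted.

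The Hsd3b1 start region is shown as that of the most abundant member. None of the 5 motifs searched occurs in it, so it has no capitals (RefSeq, GRCm38.p6, chr3:98859745-98860044, minus strand).
Hsd3b1: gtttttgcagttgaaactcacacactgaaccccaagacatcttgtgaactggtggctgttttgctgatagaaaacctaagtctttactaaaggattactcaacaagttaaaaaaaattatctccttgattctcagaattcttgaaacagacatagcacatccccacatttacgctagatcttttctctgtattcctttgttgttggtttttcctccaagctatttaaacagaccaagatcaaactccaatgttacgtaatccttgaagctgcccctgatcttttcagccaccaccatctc

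**Figure D2:**
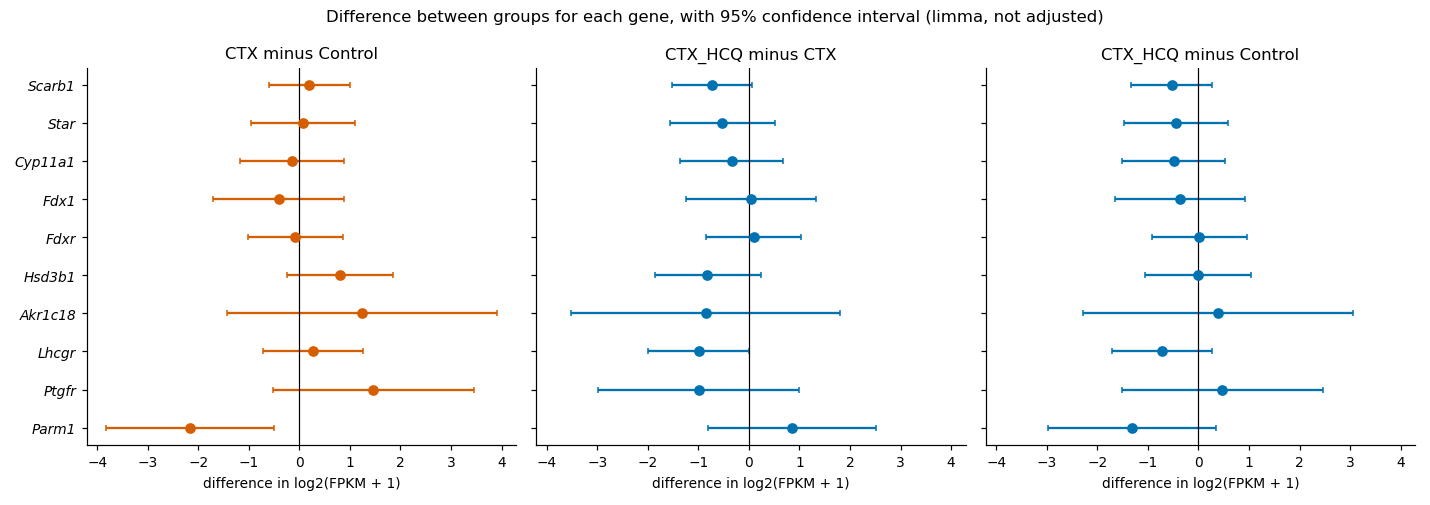
Difference in log2(FPKM + 1) between groups for each gene, with its unadjusted 95% confidence interval from limma (3 libraries per group), for CTX minus Control, CTX_HCQ minus CTX and CTX_HCQ minus Control. The interval of Parm1 in CTX minus Control, -3.82 to -0.50, stays below 0, that of Lhcgr in CTX_HCQ minus CTX ends at 0, and the rest include 0.

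The step from pregnenolone and the step before it did not keep 1 proportion across libraries. The ratio of Hsd3b1 to Cyp11a1 FPKM was 2.12, 3.79 and 3.86 in CTX_HCQ, 3.39, 3.73 and 6.56 in CTX, and 3.30, 1.84 and 1.87 in Control. Every CTX library lay above every Control library, and CTX_HCQ overlapped with both. This ratio was formed after the values had been seen and is given as a description.

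Akr1c18 (ENSMUSG00000021214), the 20-alpha-hydroxysteroid dehydrogenase that inactivates progesterone, was low in most libraries and high in CTX 2. It stood at 8.34, 1.18 and 6.97 FPKM in CTX_HCQ, at 1.87, 80.6 and 3.08 FPKM in CTX, and at 0.244, 5.77 and 7.74 FPKM in Control. The extremes rested on 1654 reads in CTX 2 and 5 reads in Control 1, a 330-fold range, the widest of the set. The log2 difference of CTX from Control was 1.23 (SE 1.2), and -0.29 without CTX 2. CTX_HCQ against CTX was at -0.85 (SE 1.2), and at 0.67 without CTX 2. CTX_HCQ against Control was at 0.38 (SE 1.2), at -0.50 without Control 1 and at -0.01 without CTX_HCQ 1. As a percentage of Hsd3b1, Akr1c18 was 1.81% in CTX 2 and at most 0.376% in the other 8 libraries.

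Lhcgr (ENSMUSG00000024107), the receptor for luteinising hormone, stood at 76.1, 111 and 62.5 FPKM in CTX_HCQ, at 264, 146 and 111 FPKM in CTX, and at 252, 84.6 and 113 FPKM in Control. CTX 1 and Control 1 were well above the other 7 libraries. CTX_HCQ averaged 83.2 ± 25.0 FPKM and CTX 173 ± 80.3 FPKM (SD, n = 3 each), a log2 difference of -0.99 (SE 0.44, unadjusted p 0.0492, adjusted p 0.906 in limma). The groups met at 111 FPKM, reached by CTX_HCQ 2 and CTX 3. CTX against Control was at 0.27 (SE 0.44), at -0.08 without CTX 1 and at -0.06 without Control 2. CTX_HCQ against Control was at -0.72 (SE 0.44, adjusted p 1 in limma).

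Ptgfr (ENSMUSG00000028036), the receptor for prostaglandin F2 alpha, varied 15.4-fold between libraries. It stood at 12, 40.3 and 29.8 FPKM in CTX_HCQ, at 119, 64.8 and 15.6 FPKM in CTX, and at 71.7, 8.86 and 7.71 FPKM in Control. In each group at least 1 library was low and at least 1 several-fold higher. The log2 difference was 1.46 (SE 0.89, 95% confidence interval -0.52 to 3.45, adjusted p 0.656 in limma) for CTX against Control. With 1 library left out, it was between 0.84 (without CTX 1, adjusted p 0.870 in limma) and 2.45 (without Control 1, adjusted p 0.282). CTX_HCQ was at -0.99 (SE 0.89) against CTX and at 0.47 (SE 0.89) against Control. Without Control 3 the value against Control was -0.07.

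The start regions of both receptor genes are shown since each holds AGGTCA and GGGCGG, an Sp1 site (capitals mark these, or TGACCT on the other strand). AGGTCA lies 122 bases upstream of the start in Lhcgr (chr17:88791965-88792264, minus strand). In Ptgfr (chr3:151837479-151837778, minus strand) it lies 170 bases upstream, on the opposite strand, and 3 bases downstream, where it directly follows a GGGCGG (RefSeq, GRCm38.p6).
Lhcgr: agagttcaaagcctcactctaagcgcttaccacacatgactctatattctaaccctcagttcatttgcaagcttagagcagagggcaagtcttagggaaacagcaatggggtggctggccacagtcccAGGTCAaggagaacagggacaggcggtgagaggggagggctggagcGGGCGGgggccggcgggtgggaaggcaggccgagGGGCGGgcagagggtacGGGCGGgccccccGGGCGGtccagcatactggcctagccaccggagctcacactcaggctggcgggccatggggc
Ptgfr: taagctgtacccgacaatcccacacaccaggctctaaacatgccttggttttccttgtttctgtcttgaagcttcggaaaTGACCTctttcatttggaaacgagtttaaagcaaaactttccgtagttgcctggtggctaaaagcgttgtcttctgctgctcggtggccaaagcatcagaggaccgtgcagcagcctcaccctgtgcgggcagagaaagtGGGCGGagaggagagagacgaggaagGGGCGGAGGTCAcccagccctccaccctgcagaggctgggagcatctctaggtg

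Parm1 (ENSMUSG00000034981) encodes a mucin-like membrane protein, and in the rat ovary it is induced in granulosa cells by the ovulatory gonadotropin stimulus. It stood at 55.1, 7.03 and 8.91 FPKM in CTX_HCQ, at 8.31, 8.03 and 7.99 FPKM in CTX, and at 13.6, 59.6 and 75.4 FPKM in Control. The CTX libraries were nearly identical and lay below all Control libraries, while CTX_HCQ spanned both levels. CTX averaged 8.11 ± 0.172 FPKM and Control 49.5 ± 32.1 FPKM (SD, n = 3 each), a log2 difference of -2.16 (SE 0.75, 95% confidence interval -3.82 to -0.50). The unadjusted p was 0.0158 and the adjusted p 0.639 in limma, so the gene did not pass. With 1 library left out, the difference was between -2.90 (without Control 1, adjusted p 0.178 in limma) and -1.71 (without Control 3, adjusted p 0.934). CTX_HCQ was at 0.85 (SE 0.75) against CTX, and at -0.03 without CTX_HCQ 1. Against Control it was at -1.31 (SE 0.75).

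The Parm1 start region is shown as that of the member with the largest difference. It has no match to the motifs (RefSeq, GRCm38.p6, chr5:91517450-91517749, plus strand).
Parm1: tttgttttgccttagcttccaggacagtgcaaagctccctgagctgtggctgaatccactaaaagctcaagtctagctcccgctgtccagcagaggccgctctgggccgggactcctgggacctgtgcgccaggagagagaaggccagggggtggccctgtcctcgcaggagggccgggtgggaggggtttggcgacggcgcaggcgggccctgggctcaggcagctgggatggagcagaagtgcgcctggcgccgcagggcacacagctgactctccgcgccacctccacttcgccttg

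Of the 10 members, 8 had a start region in the RefSeq table, in 9 windows of 300 bases, and Scarb1 and Star are named only. Motifs were searched on both strands. AAGGTCA, the element bound by NR5A1 and NR5A2, was in 0 of the 9 windows and in 4.72% of all 32851 windows of the table. The cyclic AMP response element TGACGTCA was in 0 of 9 and in 1.79% of all, and the GATA site TGATAA in 2 (Fdx1 and Fdxr) and in 9.05%. GGGCGG was in 6 of 9 and in 35.7% of all. AGGTCA, which every AAGGTCA contains and which was added after the sequences had been read, was in 4 of 9 and in 16.3% of all. A match is only a stretch of letters in the window.

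Read together, the members gave 0 calls in every comparison. For CTX against Control, 6 of the 10 were higher and 4 lower, with a median log2 difference of 0.14 beside -0.00 over all tested genes. At an adjusted p under 0.05, limma called 0% of all genes (smallest value 0.639). At an unadjusted p under 0.05 there was 1 member of 10, Parm1, beside 7.80% of all genes (1126 genes). Groups did not overlap for 1 member that was higher, Hsd3b1, beside 8.72% of all genes, and for 1 that was lower, Parm1, beside 11.0%. These counts lie near the background.

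For CTX_HCQ against CTX, 3 members were higher and 7 lower, with a median of -0.63 beside 0.01 over all genes. These values depended on CTX_HCQ 3. Without it, Star (0.13) and Cyp11a1 (0.10) turned higher. Scarb1 (-0.37), Hsd3b1 (-0.53), Akr1c18 (-1.12), Lhcgr (-0.81) and Ptgfr (-1.13) stayed lower, and Fdx1, Fdxr and Parm1 stayed higher. The share of genes called by limma was 0%, and the smallest adjusted p was 0.394. Lhcgr was the 1 member at an unadjusted p under 0.05, beside 5.44% of all genes (785 genes). No member was higher without overlap, beside 3.45% of all genes, and Hsd3b1 was lower without overlap, beside 4.57%. For CTX_HCQ against Control, 3 were higher and 7 lower, with a median of -0.41 beside -0.01 over all genes, and the members' adjusted p was 1 throughout. Of all genes 0% were called by limma (smallest adjusted p 0.669). An unadjusted p under 0.05 was found for 0 members and 2.16% of all genes (312 genes). No member was without overlap, higher (3.25% of all genes) or lower (3.06%). Star, Fdx1 and Hsd3b1 turned higher in this comparison when CTX_HCQ 3 was left out. The comparisons share groups, so their values are given side by side only. Limma voom on the recovered reads called 0 genes in each comparison, with 1128, 749 and 290 genes at an unadjusted p under 0.05.

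**Figure D3:**
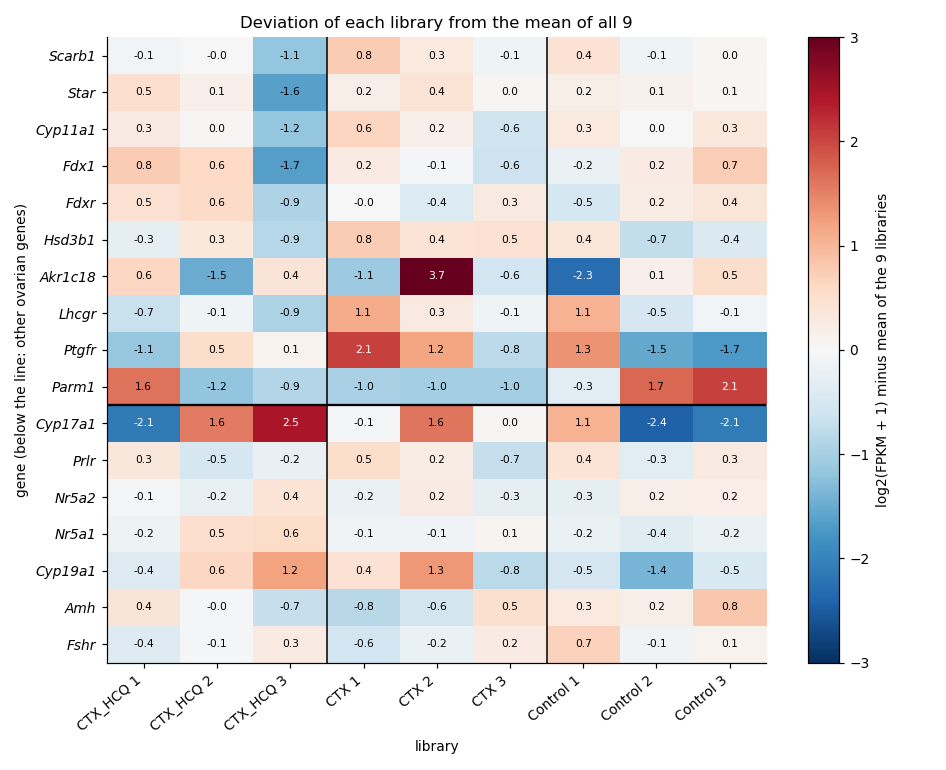
Deviation of log2(FPKM + 1) from the mean of the 9 libraries for the 10 genes (above the line) and 7 other ovarian genes (below), libraries in columns by group. Blue is below and red above the mean, and the colours end at a deviation of 3. CTX_HCQ 3 is below the mean for all members but Akr1c18 and Ptgfr, and Parm1 and Cyp17a1 take opposite colours in Control 2, Control 3 and CTX_HCQ 1.

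The members did not move as 1 block. Across the 9 libraries, the 6 genes from Scarb1 to Hsd3b1 in the pathway gave 15 pairs with Pearson correlations of log2(FPKM + 1) of 0.11 to 0.89 and a median of 0.63. Spearman's rho ran from -0.17 to 0.87, with a median of 0.40. Without CTX_HCQ 3 the Pearson values ran from -0.65 to 0.68 with a median of 0.03, so the shared movement rested on that library. Scarb1 and Lhcgr had 0.87 (rho 0.95) over 9 libraries and 0.93 without CTX_HCQ 3. Fdx1 and Fdxr, partners in electron transfer, had 0.80 (rho 0.78) and 0.57 without that library. These are descriptions: the points share library scaling and group effects.

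Ptgfr and Parm1 stood at opposite ends in the same libraries. In CTX_HCQ 1, Control 2 and Control 3 Parm1 stood at 55.1, 59.6 and 75.4 FPKM and Ptgfr at 12, 8.86 and 7.71 FPKM. In the other 6 libraries Parm1 was at 7.03 to 13.6 FPKM and Ptgfr at 15.6 to 119 FPKM. The theca enzyme Cyp17a1 stood at 0.958, 0.584 and 0.986 FPKM in those 3 libraries and at 7.06 to 45.4 FPKM elsewhere. Insl3, a defining theca marker, was at most 2.02 FPKM in any library and below the filter.

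Of the 10 tested luteal markers, Hsd17b7 and Sfrp4 divided the libraries as Ptgfr did. Hsd17b7, which in rodent luteal cells makes estradiol and also serves cholesterol synthesis, stood at 16.5, 10.7 and 13.3 FPKM in CTX_HCQ 1, Control 2 and Control 3, and at 59.1 to 271 FPKM in the other 6 libraries. Sfrp4, a secreted WNT modulator found in the corpus luteum, stood at 82.0, 67.1 and 74.7 FPKM and at 198 to 694 FPKM. Rgcc and Cited4, of the same list, divided them in the opposite sense, at 219, 165 and 217 FPKM and at 135, 104 and 130 FPKM in these 3 libraries, against 21.7 to 66.7 FPKM and 13 to 77.3 FPKM elsewhere. The values of the other 6, Prlr, Nr5a2, Idh1, Fads1, Mgst1 and Runx2, overlapped between the 2 sets of libraries. Outside that list, Runx1, a transcription factor of the ovulatory response, stood at 19.0, 24.9 and 27.8 FPKM in the 3 libraries and at 3.23 to 5.70 FPKM elsewhere. The cyclooxygenase gene Ptgs1 stood at 14.9, 25.7 and 39.7 FPKM and at 2.36 to 3.41 FPKM. The split does not follow the groups: 1 CTX_HCQ library and 2 Control libraries lie on one side of it.

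The sum of the endothelial markers was lowest in the libraries lowest in Ptgfr. Pecam1, an endothelial adhesion molecule and after Sesn3 and Dbn1 the gene most like Ptgfr, stood at 2.38, 2.79 and 2.37 FPKM in CTX_HCQ 1, Control 2 and Control 3, and at 4.22 to 13 FPKM elsewhere. All 11 endothelial markers were in the table, none at 0 in any library, and their summed FPKM was 49.3 to 122 in CTX_HCQ, 70.4 to 130 in CTX and 40.0 to 105 in Control. The lowest sums, 49.3, 41.1 and 40.0, were those of CTX_HCQ 1, Control 2 and Control 3. CTX_HCQ 3 was close to them at 53.4 FPKM, with Ptgfr at 29.8 FPKM. Oviduct and ciliated cell markers, 7 of 7 above 0 in every library, summed to 12.5 to 20.1 FPKM in CTX_HCQ, to 75.4 to 386 FPKM in CTX and to 6.32 to 81.1 FPKM in Control. Their highest sum, 386 FPKM, was that of CTX 3, where Ptgfr stood at 15.6 FPKM. Theca and interstitial markers summed to 301 to 847, 514 to 637 and 523 to 847 FPKM in these groups, with none of the 12 at 0. The sums were 847, 695 and 847 FPKM in CTX_HCQ 1, Control 2 and Control 3, where Ptgfr was lowest, and 829 FPKM in CTX_HCQ 2. Most of each was 1 gene, Mgarp, at 693, 542 and 700 FPKM in the former libraries and 536 FPKM in CTX_HCQ 2. Cyp17a1, of the same list, stood at 0.958, 0.584 and 0.986 FPKM in the former, its lowest values. These sums are therefore not read as theca content. The part of these cells in the members' values was not tested.

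**Figure D4:**
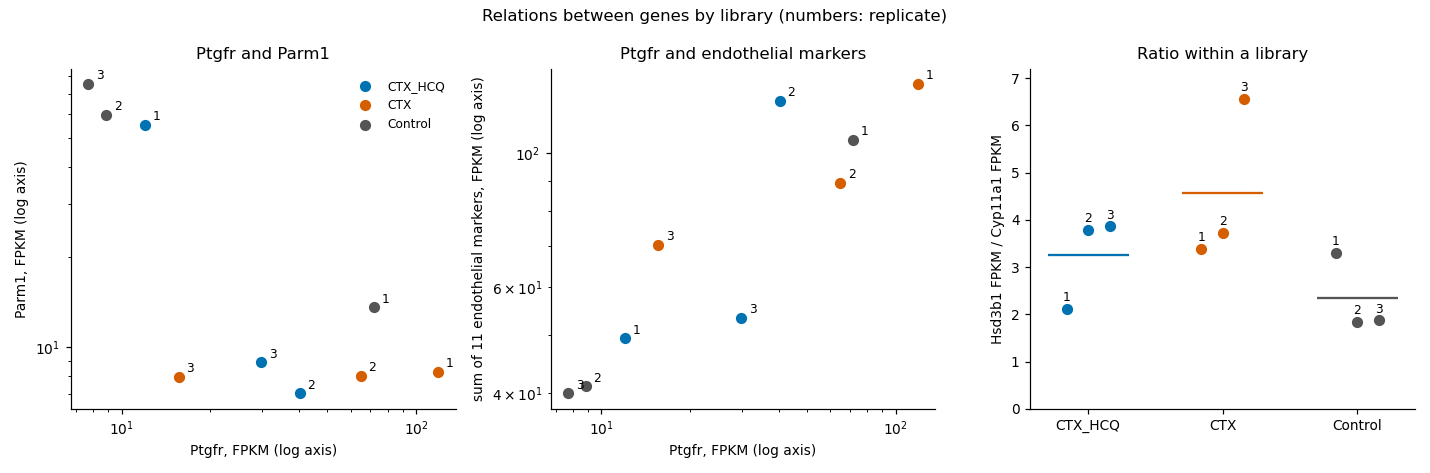
Left, Parm1 against Ptgfr FPKM; middle, the summed FPKM of 11 endothelial markers against Ptgfr (log axes); right, the ratio of Hsd3b1 to Cyp11a1 FPKM by group (linear axis, lines are means). Points are libraries with their replicate number. CTX_HCQ 1, Control 2 and Control 3 lie together, with Parm1 at 55.1 to 75.4 FPKM and Ptgfr at 7.71 to 12 FPKM.

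The genes whose pattern was most like each member were sought among 7939 genes with a mean of at least 5 FPKM, by Pearson correlation over the 9 libraries. For Cyp11a1 it was Idh1, a cytosolic source of NADPH, at 0.988 (rho 0.92), and for Fdx1 the mitochondrial protease gene Lonp1 at 0.991 (rho 0.98). Fdxr was followed by Srd5a1, a steroid 5-alpha-reductase, at 0.981 (rho 0.93), and by Akr1cl at 0.973. Hsd3b1 was followed by Ebp, a sterol isomerase of cholesterol synthesis, at 0.986 (rho 0.93). These relations were still at 0.89 to 0.98 when the 2 libraries farthest from the member's median were left out. Parm1 was most like Sbsn, which stood at 22.7, 21 and 27.5 FPKM in the 3 libraries high in Parm1 and at 5.09 to 7.35 FPKM elsewhere, so no correlation over both sets is given. Lhcgr was most like the desmosomal cadherin Dsc2 (0.946), Scarb1 like Vmac (0.963), and Akr1c18 like Prrt4 (0.927). For Star the closest was Fam213b at 0.957, and at 0.10 without CTX_HCQ 3 and CTX_HCQ 1. The highest of many correlations is high by selection.

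Regulators of the pathway were present in all groups. The orphan receptor genes Nr5a1 and Nr5a2, which drive steroid enzymes, stood at 40.8 to 78.7 and 116 to 187 FPKM over the 9 libraries. The prolactin receptor gene Prlr stood at 19.6 to 47.2 FPKM. The aromatase gene Cyp19a1 stood at 23.2 ± 12 FPKM in CTX_HCQ, 21.9 ± 14.9 FPKM in CTX and 8.53 ± 3.06 FPKM in Control (SD, n = 3 each). None of these passed the test.

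Around the members, 112 genes in 5 lists cover cholesterol handling, other steroid enzymes, luteal regulators, cyclic AMP signalling and prostaglandins, and 86 of them were tested. Limma called 0 of them in each comparison. For CTX against Control, 3 were higher and 7 lower at an unadjusted p under 0.05, 11.6% of those tested beside 7.80% of all genes. Abca1, which exports cholesterol, had the smallest p among those named, at 15.0 ± 3.91 FPKM in CTX and 27.6 ± 3.02 FPKM in Control, a log2 difference of -0.86 (SE 0.24, adjusted p 0.639). Akap1, the anchor of protein kinase A on mitochondria, stood at 21.3 ± 2.61 and 44.0 ± 14.5 FPKM (log2 difference -0.96, SE 0.32), and the adenylyl cyclase gene Adcy3 at 3.96 ± 1.29 and 10.3 ± 3.29 FPKM (-1.18, SE 0.41). Akr1c14, a hydroxysteroid dehydrogenase, stood at 165 ± 30.6 FPKM in CTX and 96.2 ± 59.2 FPKM in Control (0.92, SE 0.39).

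At an unadjusted p under 0.05, 2.33% of the tested list genes differed for CTX_HCQ against CTX, beside 5.44% of all genes. Of these list genes, 2 were higher and 0 lower. They were Abca1, at 25.8 ± 6.40 FPKM in CTX_HCQ and 15.0 ± 3.91 FPKM in CTX (log2 difference 0.74, SE 0.24, adjusted p 0.710 in limma), and the receptor gene Igf1r, at 18.4 ± 6.33 and 11.8 ± 1.96 FPKM. All CTX_HCQ libraries lay above all CTX libraries for Abca1, as for 3.45% of all genes. For CTX_HCQ against Control, 2 were higher and 2 lower, 4.65% of those tested beside 2.16% of all genes. Cyp19a1 and Nr5a1 were on the higher side, and Runx2 and Hsd17b11, at 24.3 ± 6.61 FPKM in CTX_HCQ and 39.5 ± 6.28 FPKM in Control, on the lower. All had an adjusted p of 1 in limma.

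By list, the median log2 differences for CTX against Control were 0.07 for cholesterol handling (16 tested), 0.29 for other steroid enzymes (12), -0.13 for luteal regulators (21), -0.19 for cyclic AMP signalling (20) and 0.02 for prostaglandins (17). For CTX_HCQ against CTX they were -0.11, -0.06, 0.22, 0.16 and -0.10 in the same order. For CTX_HCQ against Control they were -0.11, 0.15, 0.01, -0.06 and -0.06. The medians over all genes stood at -0.00, 0.01 and -0.01. Luteal cell markers, 10 of 12 tested, had medians of -0.10, -0.35 and -0.23 in the 3 comparisons. Onecut2 and Akr1b7, also on that list, were below the filter, and each was listed at 0 in 1 library.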

How the data were processed

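Messenger RNA of 9 libraries (3 per group) was sequenced, per the labels' protocols after selection with poly-T beads. The authors deposited 1 table of FPKM. The submitters' processing notes list featureCounts 1.5.0-p3, HISAT2 2.0.5, DESeq2 1.20.0 and fastp 0.23.2, and the build GRCm39 (mm39). Their settings, and whether counting used strand, are not given in the sources used here, so reads of overlapping and antisense genes cannot be told apart. Genes with closely related copies, such as the Hsd3b and Akr1c families, may be uncertain for the same reason.

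Symbols came from GENCODE M21 (GRCm38): 52073 of 56748 identifiers matched, and 14144 of the 14431 tested. Coordinates belong only to the RefSeq start regions on GRCm38.p6. Genes with at least 1 FPKM in at least 3 libraries were tested on log2(FPKM + 1), which understates differences of low genes. The test was limma 3.58.1 (R 4.3.3), with a mean per group over all 9 libraries, a variance trend, two-sided p-values and Benjamini-Hochberg adjustment with a threshold of 0.05. Figures and summaries used Python 3.11.15 and pandas 2.3.3.

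Whole reads were recovered from the FPKM and exon lengths within 0.02 reads: 13573 genes used their annotated length, 854 a searched length, and 4 were not resolved. Within groups the recovered reads differed by a chi-square per degree of freedom of 15 to 158, so no library repeats another. The recovery and the limma fit were tested on simulated data.

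The members and all lists were chosen with earlier results of these data known. All members are named. Of the 5 pathway lists, up to 3 genes of smallest p per comparison could be named, and mainly those at an unadjusted p under 0.05 are given. Cyp17a1, Insl3, Cyp19a1, Hsd17b7, Hsd3b6, Nr5a1, Nr5a2, Prlr, Foxl2, Amh, Fshr and Sfrp4 are given whatever their values, a further gene of this rule is not reported here, and the 3 most similar genes per member could be named. Inha, AGGTCA, the ratios and the genes in the closing observations were picked with their values already known. Alternatives were a pseudocount of 0.1, other filters and scalings, fits of 2 groups, library weights, a replicate block, voom on recovered reads, and fits that left out 1 library. Leaving out CTX 3 and CTX_HCQ 3 together was added after seeing the data.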

Additional observations from a re-analysis of the deposited data

How the results depend on the processing

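No member was called under any alternative except library weights, where limma called 2 for CTX against Control, Ptgfr at 2.70 (adjusted p 0.0436) and Parm1 at -2.67 (adjusted p 0.0369). With these weights 648 genes were called for CTX against Control, and 1 gene in each of the other comparisons. Leaving out 1 library gave 0 to 13 called genes for CTX against Control and 0 to 10 for CTX_HCQ against CTX, the higher counts without Control 1, and 0 for CTX_HCQ against Control. At an unadjusted p under 0.05, CTX against Control had 3935 genes under library weights, 2067 when fitted without CTX_HCQ, 1906 without a filter and 580 at a mean of at least 5 FPKM. CTX_HCQ against CTX had 2832 under weights, 1713 without a filter and 370 at that mean, and CTX_HCQ against Control 905, 926 and 146. The fits without a filter tested 32879 genes and those at that mean 8387, against 14431 in the main fit. Their counts therefore cannot be compared directly. With 1 library left out the counts were 424 (without Control 2) to 1693 (without CTX_HCQ 2), 483 (without CTX 1) to 2440 (without CTX_HCQ 2) and 157 (without Control 2) to 1079 (without CTX_HCQ 1). The causes were not tested.

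Of 300 member differences under the other alternatives, 283 kept their direction and side of the threshold. For CTX against Control, Star was at -0.08 with quantile normalization, and Cyp11a1 at 0.13 with library weights and 0.19 without CTX 3 and CTX_HCQ 3. For CTX_HCQ against CTX, Star was at 0.06 with weights and 0.04 without those 2 libraries. For CTX_HCQ against Control, library weights gave 0.21 for Star, 0.0013 for Cyp11a1, 0.17 for Fdx1 and 0.26 for Hsd3b1. Without the 2 libraries Star was at 0.20, Fdx1 at 0.41 and Hsd3b1 at 0.28. Hsd3b1 was also at 0.17 with quantile normalization, 0.03 rescaled without mitochondrial genes and 0.03 with voom.

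With 1 library left out, 241 of 270 differences kept their direction. Those that changed sign are given by range. For CTX against Control they ran from -0.02 to 0.41 for Scarb1, -0.03 to 0.16 for Star, -0.43 to 0.19 for Cyp11a1, -0.35 to 0.10 for Fdxr, -0.29 to 2.12 for Akr1c18 and -0.08 to 0.72 for Lhcgr. For CTX_HCQ against CTX they ran from -0.94 to 0.13 for Star, -0.68 to 0.10 for Cyp11a1, -0.38 to 0.82 for Fdx1, -0.18 to 0.58 for Fdxr, -1.74 to 0.67 for Akr1c18 and -0.03 to 1.37 for Parm1. For CTX_HCQ against Control they ran from -0.87 to 0.20 for Star, -0.79 to 0.41 for Fdx1, -0.26 to 0.50 for Fdxr, -0.31 to 0.31 for Hsd3b1, -0.50 to 1.04 for Akr1c18 and -0.07 to 1.46 for Ptgfr.

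With the replicate number as a block, 0 genes were called in each comparison, and 847, 668 and 293 had an unadjusted p under 0.05. Deviations of same-numbered libraries correlated at -0.46 to 0.14. The labels do not say what the replicate number marks, and these correlations cannot exclude a shared batch or day. Depth limits Akr1c18 most, with 5 reads in Control 1.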

Other observations

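CTX_HCQ 3, the library lowest for 7 members, was set against the other 8 for whole lists, a count made after the data had been seen. The same count over all tested genes was not made, so the list counts have no background beside them. CTX_HCQ 3 was the lowest library for 6 of the 16 tested genes of cholesterol handling and the highest for 1, Npc1. Among the 6 were Tspo, a cholesterol-binding protein of the outer mitochondrial membrane, at 30.6 FPKM there and at 63.2 to 111 FPKM elsewhere, and the sterol carrier Scp2, at 14.3 and at 21.6 to 31.9 FPKM. Abca1, at 25.8 FPKM, and Stard3, at 14.1 FPKM, were not low. Of 17 prostaglandin genes it was lowest for 9 and highest for 2, and of 10 luteal markers lowest for 5 and highest for 1.

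Of the 21 luteal regulators, CTX_HCQ 3 was lowest for 3, among them Cebpb at 38.4 FPKM (50.7 to 157 FPKM elsewhere), and highest for 8, among them Esr2 at 101 FPKM (24.0 to 63.0 FPKM elsewhere). Of the 15 granulosa markers it was lowest for 0 and highest for 4, with Inhba, an activin subunit gene, at 440 FPKM (41.6 to 249 FPKM elsewhere). Amh stood at 189 FPKM there, with only CTX 1 lower, at 172 FPKM. Foxl2, at 79.3 FPKM, lay within the range of the others.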
